A study of Mus musculus with 6 samples.

Results

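Of the 54532 genes in the deposited count table, 10 are described here: carriers that bring glucose and amino acids into T cells or move lactate across their membrane. They were chosen by name and not by a rule on measured values, though with earlier results of these data known. Each matched 1 row of the table. The 10 genes are Slc2a1, Slc2a3, Slc16a1, Slc16a3, Slc7a5, Slc3a2, Slc1a5, Slc38a1, Slc38a2 and Slc7a6. RNA came from CD4+ T cells of the spleen of C57BL/6 mice with experimental autoimmune encephalomyelitis (EAE), a disease model in which T cells attack the brain and spinal cord, and cells were taken in its acute phase. There were 3 control mice, given only as wild type, and 3 mice labelled Ogt-KD, whose genotype is Ogtfl/wt CD4-Cre. The latter carry 1 floxed and 1 wild-type allele of Ogt, the gene for O-GlcNAc transferase, and a Cre recombinase driven by Cd4 sequence, which works in the T lineage. All 6 mice had EAE, and effects of the Cre and of the floxed allele cannot be told apart.

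T cells that leave quiescence take up more glucose and amino acids to build the proteins, lipids and nucleotides of a growing cell, and they release lactate. Glucose and glutamine also feed the hexosamine pathway, whose end product is the sugar donor that O-GlcNAc transferase uses. Leucine entry is sensed by the mTORC1 kinase complex, so amino acid carriers also act upstream of a growth signal.

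Libraries held from 18127031 to 25683453 counts, of which the 10 carriers took between 0.0999% and 0.127%. Levels below are TMM-scaled CPM, the count relative to the library's effective size, unless FPKM is named. Ogt itself stood at 599, 628 and 562 CPM in control libraries and at 662, 599 and 459 CPM in Ogt-KD libraries. The log2 fold change was -0.06 (SE 0.15), so its RNA per gene did not differ beyond the replicate spread. The defining T cell genes Cd3d, Cd3e, Cd3g, Cd4 and Cd28 summed to between 2076 and 2290 CPM in control and between 2094 and 2228 CPM in Ogt-KD libraries. Replicate 3 of both groups lay far from Ogt-KD replicates 1 and 2 on principal component 1 (44.8% of the variance), and results are therefore also given without both replicate 3 libraries.

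None of the 10 carriers passed the test between the groups. In edgeR's quasi-likelihood test 0 of 10 had an adjusted p under 0.05, where 0.00622% of all 16075 tested genes did, and 0 of 10 were also called by DESeq2 (background 0.638%) and by limma-voom (0.00622%). One carrier, Slc16a3, had an unadjusted p under 0.05 in edgeR and in DESeq2, and none had one in limma-voom. The share of all tested genes with an unadjusted p under 0.05 in edgeR was 7.52%. With the replicate number as a block in the fit, 0.292% of tested genes were called and again 0 of 10 carriers. Above 0 lay 5 of the 10 carriers and below it 5, where 49.0% of all tested genes lay above 0. Over the carriers the median of the log2 fold changes, Ogt-KD relative to control, was -0.01, and over all tested genes it was -0.005. The groups did not overlap for 1 carrier, Slc7a6, against 13.3% of all tested genes. Without both replicate 3 libraries 0 of 10 were called and 5 lay above 0.

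**Figure D1:**
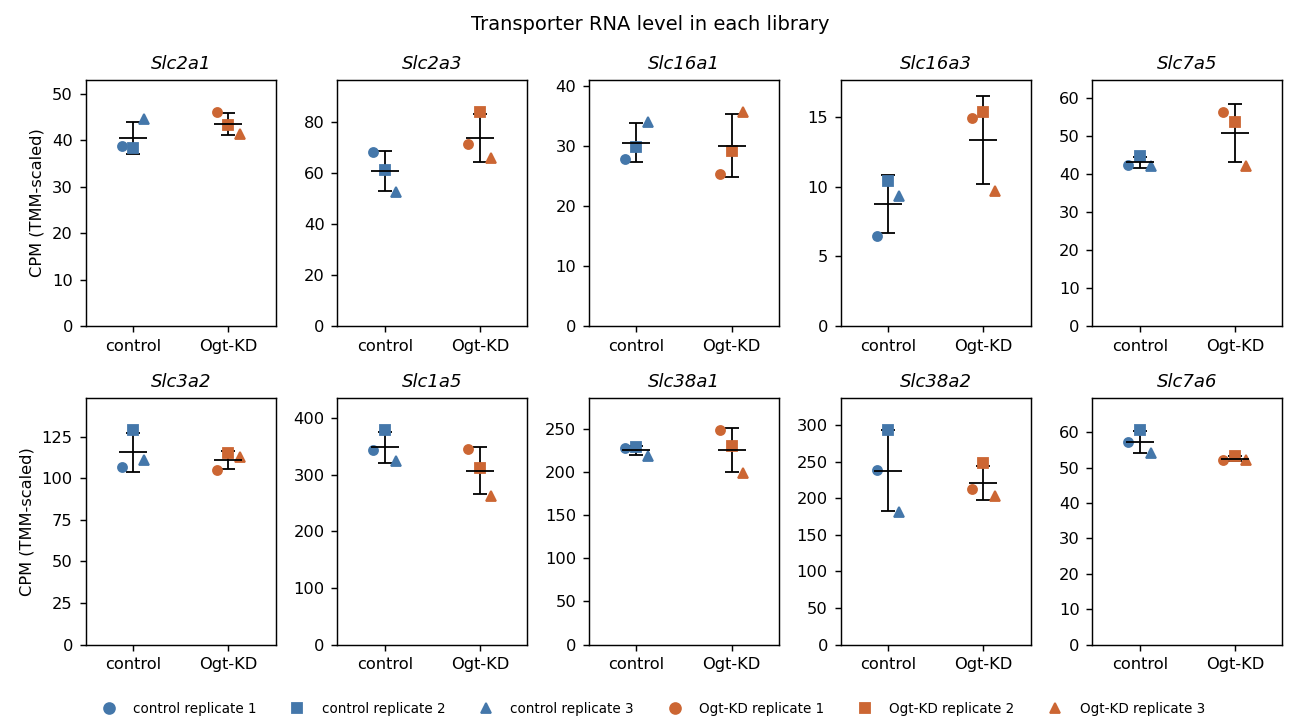
RNA level of each carrier in TMM-scaled CPM (vertical axes, from 0) in the 3 control and 3 Ogt-KD libraries. Symbols are libraries, and the black line and bar are the mean and SD of 3. In 9 panels the groups overlap, and in the Slc7a6 panel the control libraries lie between 54.2 and 60.5 and the Ogt-KD libraries between 52.1 and 53.2.

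The carriers covered a wide range of levels, which the deposited FPKM, a level per gene length, allow to be compared between genes. Slc1a5 had the highest level, with a mean of 78.1 ± 9.37 FPKM (SD, n = 6 libraries), above 96.2% of the tested genes. Slc3a2 followed at 31.9 ± 2.55 FPKM and Slc38a2 at 25.8 ± 4.48 FPKM, and their ranges over the 6 libraries overlapped. A group of 4 genes lay next and close together: Slc38a1 at 13.0, Slc7a5 at 12.5, Slc7a6 at 11.9 and Slc2a1 at 11.9 FPKM, with neighbours in this order overlapping. Slc2a3 had 9.22 FPKM and Slc16a1 had 6.81 FPKM, and each also overlapped the gene above it. Slc16a3 had the lowest level at 2.06 FPKM, below the lowest library of Slc16a1 in every library and above 32.9% of tested genes. The 2 breaks in the order where ranges did not overlap, apart from that one, were between Slc1a5 and Slc3a2 and between Slc38a2 and Slc38a1. The order depends on the deposited gene lengths. Slc38a1 has 17236 bases and Slc38a2 has 8838, and Slc2a3 has 7245 and Slc2a1 has 3506. In mean control CPM Slc38a1 stood at 225 and Slc38a2 at 238, and Slc2a3 at 60.7 was above Slc2a1 at 40.6. In Ogt-KD libraries these means were 225, 221, 73.9 and 43.5 in turn. The 10 genes summed to between 194 and 228 FPKM in control and between 183 and 207 FPKM in Ogt-KD libraries, and Slc1a5 alone made up 34.5% to 40.3% of the sum.

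**Figure D2:**
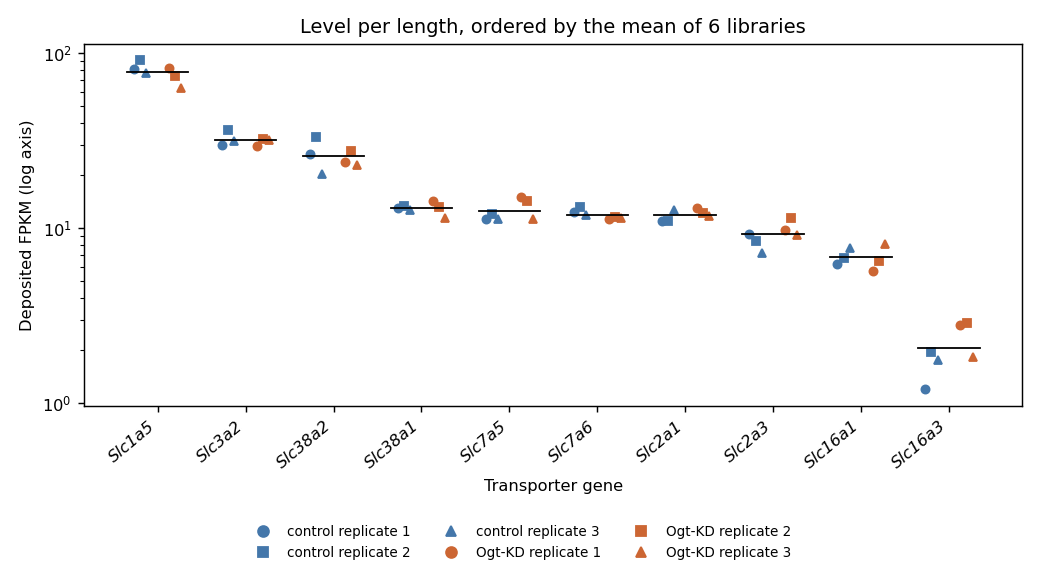
Deposited FPKM of each carrier on a log axis, with genes ordered by the mean of 6 libraries (black line). Points are libraries. Slc1a5 stands at the top at 63.0 to 91.0 FPKM and Slc16a3 at the bottom at 1.19 to 2.86 FPKM.

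Glucose enters lymphocytes mainly through the facilitative carriers GLUT1 and GLUT3. Slc2a1, which encodes GLUT1 (4:119108711-119137983 on GRCm38), stood at 38.8, 38.4 and 44.5 CPM in control and at 46.1, 43.2 and 41.3 CPM in Ogt-KD libraries. The groups overlapped, with control replicate 3 above 2 of the Ogt-KD libraries. Slc2a1 had a log2 fold change of 0.10 (95% interval -0.13 to 0.34, SE 0.10, adjusted p = 0.926 in edgeR), so the interval covers changes from -8.77% to 26.3%. It was 0.06 without Ogt-KD replicate 1, 0.07 without control replicate 2 and 0.21 without both replicate 3 libraries. Slc2a1 overlaps the antisense genes Gm12867 and Gm12868, which held 169 and 31 reads in all against its 5418, and the strand setting of the counting is not given in the sources used here.

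Slc2a3, which encodes the high-affinity carrier GLUT3 (6:122727809-122801640), stood at 68.3, 61.3 and 52.6 CPM in control and at 71.4, 84.1 and 66.1 CPM in Ogt-KD libraries. Only Ogt-KD replicate 3 lay inside the control range, and within each of the 3 same-numbered pairs the Ogt-KD library was the higher one. The mean was 60.7 ± 7.90 against 73.9 ± 9.26 CPM (SD, n = 3 each), with a log2 fold change of 0.28 (95% interval -0.03 to 0.59, SE 0.13, adjusted p = 0.684 in edgeR). With the replicate block the fold change was 0.28 with an SE of 0.10, and the unadjusted p went from 0.0713 to 0.0243 in edgeR (adjusted p = 0.287). The share of all tested genes with an unadjusted p under 0.05 also rose, from 7.52% without the block to 13.2% with it. With no block the Slc2a3 fold change was 0.18 when Ogt-KD replicate 2 was left out and 0.17 when control replicate 3 was. Dendritic cell and antigen presentation genes differed in the same direction, with 10 of 10 above 0. Their summed level was 1208, 1205 and 569 CPM in control and 1945, 2804 and 1043 CPM in Ogt-KD libraries, and no gene of that list was at 0 in all libraries. Across the 6 libraries log2 Slc2a3 and that sum had a Pearson's r of 0.95 and a Spearman's rho of 0.94, and r was 0.65 without the 2 libraries farthest from the median sum. The CD8 and NK list, at 28.6 to 30.8 CPM in control and 31.2 to 33.5 CPM in Ogt-KD libraries, followed Slc2a3 as closely (r = 0.94, rho = 0.94, and r = 0.91 without the 2 farthest), so the dendritic list was not alone in this. Of 9216 genes compared, those with a pattern most like Slc2a3 were Cd83 (r = 0.999), an activation marker of dendritic cells and B cells that T cells can also express, H2-Aa (0.986), an MHC class II chain, and the kinase gene Rps6ka4 (0.981). These correlations describe 6 libraries, which share their depth and cell mixture with both measures. The part of other cells in the Slc2a3 level was not tested. In bulk RNA, fewer cells of a type and less RNA per cell cannot be told apart, here and for the genes below.

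**Figure D3:**
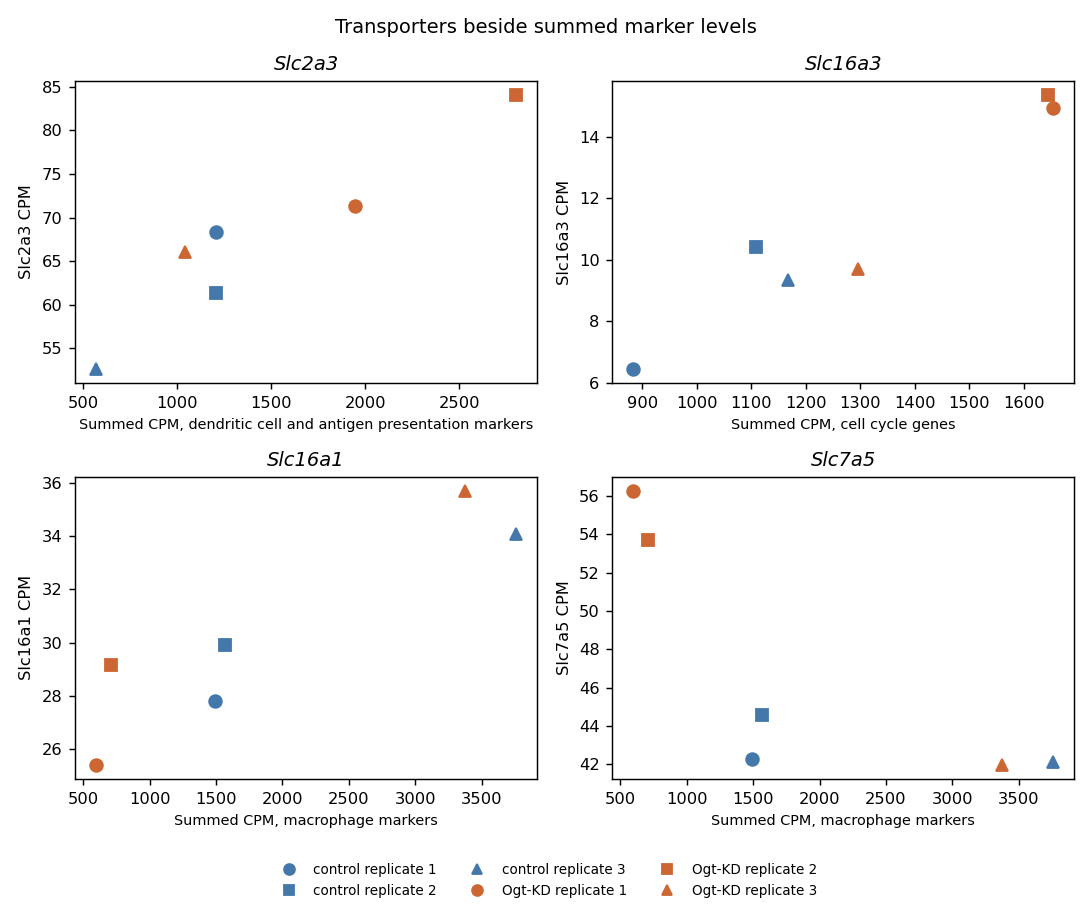
CPM of Slc2a3, Slc16a3, Slc16a1 and Slc7a5 (vertical axes, not from 0) against the summed CPM of a marker list in the same library (horizontal axes). Points are the 6 libraries. The library with the most dendritic cell marker RNA, Ogt-KD replicate 2, also has the highest Slc2a3, and the libraries with the least macrophage marker RNA, Ogt-KD replicates 1 and 2, have the highest Slc7a5.

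Lactate and other monocarboxylates cross the membrane with a proton through MCT1 and MCT4. Slc16a3, which encodes MCT4, the carrier typical of glycolytic cells that export lactate (11:120948480-120960868), had the highest fold change of the 10. It stood at 6.44, 10.4 and 9.35 CPM in control and at 14.9, 15.4 and 9.71 CPM in Ogt-KD libraries. Ogt-KD replicates 1 and 2 lay above every control library and replicate 3 within the control range, and Slc16a3 was also higher in Ogt-KD in all 3 same-numbered pairs. The mean was 8.74 ± 2.06 against 13.3 ± 3.15 CPM (SD, n = 3 each), and the difference on the log2 scale was 0.61 (95% interval 0.01 to 1.20, SE 0.25), which did not pass (edgeR unadjusted p = 0.0466, adjusted p = 0.650). With the replicate block the unadjusted p was 0.0319 in edgeR (adjusted p = 0.322, SE 0.23), where 13.2% of tested genes had one under 0.05. The counts of Slc16a3 ran from 141 to 305 reads. The counting error at 141 reads is 8.42%, against a spread over the 6 libraries of 31.4%. The fold change was 0.84 without both replicate 3 libraries (edgeR adjusted p = 0.186) and 0.43 without control replicate 1. Cell cycle genes summed to 884, 1109 and 1168 CPM in control and to 1655, 1645 and 1296 CPM in Ogt-KD libraries, with 15 of 15 above 0 and 10 of 15 with groups that did not overlap, where 7.43% of tested genes were higher without overlap. Slc16a3 and that sum had r = 0.96 and rho = 0.77 over the 6 libraries, and the part of dividing cells in the Slc16a3 level was not tested.

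Slc16a1, which encodes MCT1, a carrier for lactate and pyruvate in both directions (3:104638668-104658462), stood at 27.8, 29.9 and 34.1 CPM in control and at 25.4, 29.1 and 35.7 CPM in Ogt-KD libraries. The groups overlapped throughout, and replicate 3 was the highest library of each. On the log2 scale the fold change was -0.02 (95% interval -0.38 to 0.33, SE 0.15, adjusted p = 0.992 in edgeR). Macrophage markers were high in the same libraries, at 1490, 1567 and 3761 CPM in control and 598, 708 and 3372 CPM in Ogt-KD libraries, with r = 0.89 and rho = 0.89 to Slc16a1. The activation list moved with it too (r = 0.84, rho = 0.94). All 7 macrophage markers lay below 0 between the groups and none was at 0 in all libraries. Their part in the Slc16a1 level was not tested.

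The level of Slc16a3 relative to Slc16a1, as a ratio of FPKM within a library, was 0.193, 0.290 and 0.228 in control and 0.490, 0.439 and 0.226 in Ogt-KD libraries. The 2 high ratios were those of Ogt-KD replicates 1 and 2, and replicate 3 was within the control range. The difference did not pass an exact permutation test (two-sided p = 0.3, n = 3 each). With 3 against 3 libraries this test cannot go below 0.1, and with the libraries taken as 3 pairs it cannot go below 0.25. Basigin, the partner that brings both carriers to the membrane (Bsg), stood at 118, 117 and 131 CPM against 110, 117 and 137 CPM (log2 fold change -0.01, SE 0.11). Embigin (Emb), an alternative partner of MCT1 and one of the 8 partner and trafficking genes listed, had a log2 fold change of -0.31 (adjusted p = 0.669 in edgeR, SE 0.14).

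Large neutral amino acids, leucine among them, enter through LAT1, a heterodimer of the transporting chain encoded by Slc7a5 and the heavy chain CD98, encoded by Slc3a2. Slc7a5 (8:121881150-121907694) stood at 42.3, 44.6 and 42.1 CPM in control and at 56.3, 53.7 and 42.0 CPM in Ogt-KD libraries. Ogt-KD replicates 1 and 2 were above all control libraries and replicate 3 was below all of them. The mean was 43.0 ± 1.37 against 50.6 ± 7.63 CPM (SD, n = 3 each), so the spread in Ogt-KD libraries was the wider one. The log2 fold change was 0.24 (95% interval -0.06 to 0.53, SE 0.12, adjusted p = 0.731 in edgeR). It was 0.34 without both replicate 3 libraries (edgeR adjusted p = 0.157, unadjusted p = 0.00825) and 0.16 without Ogt-KD replicate 1. Without both replicate 3 libraries 16.1% of all tested genes had an unadjusted p under 0.05 in edgeR, against 7.52% with all 6 libraries. Several marker lists moved with Slc7a5 over the 6 libraries. It was high where the activation list (r = -0.93, rho = -0.94) and macrophage markers (r = -0.91, rho = -0.89) were low, and where dendritic cell (r = 0.83, rho = 0.83) and cell cycle genes (r = 0.83, rho = 0.49) were high. Without the 2 libraries farthest from each median sum r was -0.47, -0.86, 0.98 and 0.83 for these lists in turn. The activation list summed to between 1630 and 1682 CPM in control and between 1373 and 1868 CPM in Ogt-KD libraries. Their part in the Slc7a5 level was not tested. Among the carriers Slc7a5 had its highest Pearson's r with Slc16a3 (r = 0.87, rho = 0.71) and its highest Spearman's rho with Slc38a1 (r = 0.73, rho = 1). The genes with the most similar pattern were Rcor3 (r = 0.998), a corepressor, and E2f2 (0.995) and Rad54l (0.992), of the cell cycle and of DNA recombination. With 6 libraries such values are common, and 327 of 9216 genes had r over 0.9 to Slc7a5.

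Slc3a2 (19:8706882-8723369) had no such spread among Ogt-KD libraries. It stood at 107, 129 and 111 CPM in control and at 105, 115 and 113 CPM in Ogt-KD libraries, with a log2 fold change of -0.06 (95% interval -0.29 to 0.17, SE 0.10, adjusted p = 0.970 in edgeR). Replicate 2 was the highest library in each group. The 2 chains of the heterodimer had r = -0.20 and rho = -0.14 to each other over the 6 libraries. The heavy chain was the more abundant RNA per length, with an Slc3a2 to Slc7a5 ratio of FPKM of 2.65, 3.03 and 2.77 in control and 1.96, 2.25 and 2.82 in Ogt-KD libraries (exact permutation test, two-sided p = 0.3, n = 3 each).

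Slc7a6, whose product also pairs with CD98 and exchanges cationic for neutral amino acids (8:106168857-106198706), was the one carrier whose groups did not overlap. It stood at 57.2, 60.5 and 54.2 CPM in control and at 52.1, 53.2 and 52.3 CPM in Ogt-KD libraries, all 3 below the lowest control library. The step is small, from 57.3 ± 3.17 to 52.5 ± 0.62 CPM (SD, n = 3 each). The log2 fold change of -0.13 (95% interval -0.32 to 0.06, SE 0.08) did not pass (edgeR adjusted p = 0.813), and 5.88% of all tested genes were lower without overlap. The interval covers changes from -19.7% to 4.60%. The log2 fold change was -0.08 without control replicate 2. The ratio of Slc7a5 to Slc7a6 in FPKM was 0.912, 0.908 and 0.958 in control and 1.33, 1.24 and 0.989 in Ogt-KD libraries. All 3 Ogt-KD ratios were above all control ratios, which gives the smallest p that this design allows in an exact permutation test (two-sided p = 0.1, adjusted p = 0.5 over the 5 ratios compared, which were chosen after the levels had been seen). Taken as pairs, the ratio was higher in Ogt-KD in 3 of 3 (exact paired permutation test, two-sided p = 0.25, again the smallest possible). The log2 difference of this ratio was 0.35 with all libraries, 0.50 without both replicate 3 libraries and 0.26 without Ogt-KD replicate 1.

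**Figure D4:**
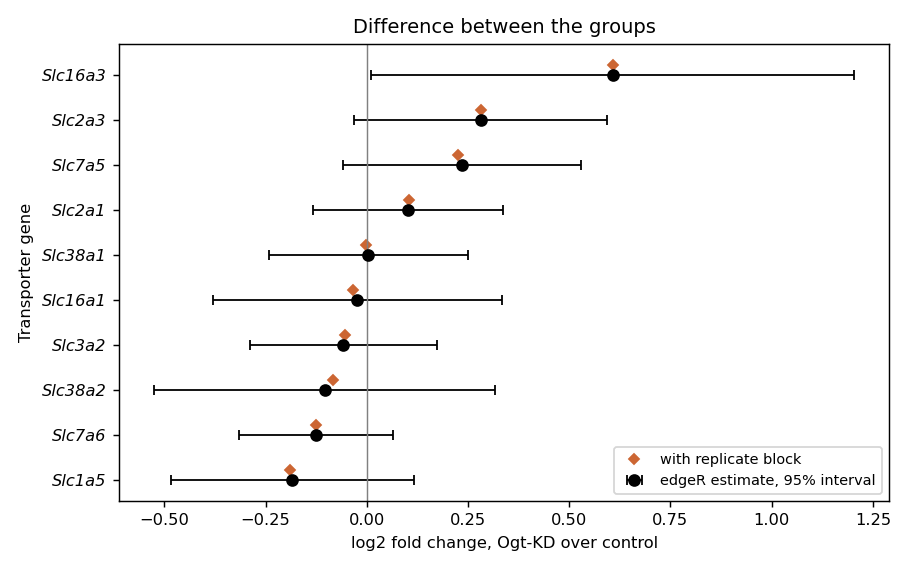
Log2 fold change, Ogt-KD relative to control (horizontal axis), for each carrier, with the 95% interval from edgeR's quasi-likelihood test on 3 against 3 libraries as bars and the estimate with the replicate block as diamonds. Slc16a3 stands highest at 0.61 and Slc1a5 lowest at -0.18, and the interval of Slc16a3 (0.01 to 1.20) is the one that does not include 0.

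Glutamine and other small neutral amino acids enter through the exchanger ASCT2 and the sodium-coupled carriers SNAT1 and SNAT2. Slc1a5, which encodes ASCT2 (7:16781340-16798274), stood at 344, 379 and 324 CPM in control and at 346, 312 and 263 CPM in Ogt-KD libraries. Ogt-KD replicates 2 and 3 were below all controls and replicate 1 was inside their range. The log2 fold change was -0.18 (95% interval -0.48 to 0.12, SE 0.13, adjusted p = 0.834 in edgeR), and leaving out 1 library gave -0.09 for Ogt-KD replicate 3, -0.28 for Ogt-KD replicate 1 and -0.12 for control replicate 2. Ogt-KD replicate 3 held 221 CPM of summed erythroid marker RNA, against 26.1 to 66.6 CPM in the other 5 libraries. Between the groups 10 of 10 tested erythroid markers lay above 0. The sum and Slc1a5 had r = -0.99 and rho = -0.94 over the 6 libraries, and r was -0.90 without the 2 libraries farthest from the median sum. Whether the 2 are linked was not tested.

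Slc38a1 and Slc38a2 lie 44.5 kb apart on the same strand of chromosome 15. Slc38a1, the gene for SNAT1 (15:96571418-96642913), stood at 227, 229 and 219 CPM in control and at 248, 230 and 198 CPM in Ogt-KD libraries, with the Ogt-KD libraries on both sides of the controls. Its log2 fold change was 0.004 (95% interval -0.24 to 0.25, SE 0.10, adjusted p = 0.998 in edgeR), and its sign was not stable, being -0.002 with DESeq2 and with the block. Slc38a2, the gene for SNAT2, a carrier induced when amino acids are scarce (15:96687392-96699730), stood at 238, 293 and 182 CPM in control and at 212, 248 and 203 CPM in Ogt-KD libraries. In both groups replicate 2 was highest and replicate 3 lowest, and the control range enclosed all Ogt-KD libraries. The log2 fold change was -0.10 (95% interval -0.53 to 0.32, SE 0.18, adjusted p = 0.970 in edgeR), with the sign reversed at 0.08 without control replicate 2. Its SE was 0.10 with the replicate block, the largest reduction among the carriers, of which 8 had a smaller SE with the block. The genes with a pattern most like Slc38a2 were Gpr89 (r = 0.991), Nfrkb (0.990) and Cct2 (0.984), the last a subunit of the cytosolic chaperonin.

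The carriers had no single pattern across libraries. Of the 45 pairs 25 had a positive and 20 a negative correlation of log2 level over the 6 libraries, with a median r of 0.09. The lowest value was that of Slc16a1 and Slc38a1, at r = -0.93 and rho = -0.83. The genes most like Slc2a1 lay outside the carriers and were Wdr83os (r = 0.976), the nuclease partner gene Eme2 (0.967) and Sfxn1 (0.963), which encodes a mitochondrial serine carrier.

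Promoter sequences were looked at because Slc2a1 and Slc16a3 are textbook targets of the hypoxia factor HIF-1, and Myc and ATF4 are known to drive amino acid carriers. RefSeq promoters on GRCm38.p6, from 250 bases before to 50 bases after the start, were matched for 6 of the 10 genes, with 7 promoters. GACGTG, which holds the core of the hypoxia element, was present on either strand in 5 of the 7, against 6.38% of 32851 promoters. Of these 5, 2 are overlapping promoters of Slc7a6 that share the same site. The E-box CACGTG, a site type that Myc binds, was in 1 of 7 against 7.15%, and TGATGNAAN, a form of the amino acid response element, in 0 of 7 against 3.95%. The 30 bases around each match that lies before the start are given on the plus strand, with the matched letters in capitals, for comparison of the 2 lactate carriers with Slc2a1 and Slc7a6.
Slc2a1 (chr4:119108696-119108725): agtcccgccccgGACGTGctccccaggccc
Slc16a3 (chr11:120949034-120949063): gcggtGACGTGcgcggggGACGTGccgcgc
Slc7a6 (chr8:106168842-106168871): tccggtgcgagtGACGTGgcgtgggcgggg
Slc16a1 (chr3:104638452-104638481): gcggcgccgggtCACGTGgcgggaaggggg
Slc16a3 carries the GACGTG letters at 2 places, 28 and 15 bases before its start, and Slc2a1 at 37 bases before. Slc16a1 also carries GACGTG, after its start and so outside the bases shown. Over the 7 promoters G and C made up from 56.0% in Slc3a2, which held no match, to 76.7% in Slc7a6. The shares over all promoters were not adjusted for G and C content. A match is a description of letters and not a site shown to be bound. Of the factors, Hif1a had a log2 fold change of 0.16 (SE 0.10), Myc of -0.19 (SE 0.10) and Atf4 of -0.04 (SE 0.10), and none passed. Of 9 tested factor genes 3 lay above 0 and 0 were called in edgeR or DESeq2, with a median of -0.14. Nfe2l2 (-0.17) and Mlx (-0.16) were lower without overlap, 2 of 9, where 5.88% of all tested genes were.

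Of the related carriers outside the 10, none was called in edgeR, in limma-voom or with the replicate block. In DESeq2, which called 0.638% of all tested genes, 1 was called, the amino acid carrier Slc7a10. Of 20 other sugar and monocarboxylate carriers 11 were tested, 6 above 0, and their median was 0.03 on the log2 scale. Slc45a4 (0.23, SE 0.09) and Slc16a13 (0.35, SE 0.19) were higher without overlap, 2 of 11, where 7.43% of all tested genes were. Slc2a6, a glucose carrier of lysosomes, had 1.07 (SE 0.48). Slc50a1 had -0.16 (SE 0.10). Of 30 other amino acid carriers 20 were tested, 10 above 0 with a median of 0.01. Slc7a10, the carrier Asc-1, had the smallest p among them, at 1.69, 1.69 and 1.13 CPM in control and 4.16, 5.07 and 3.32 CPM in Ogt-KD libraries. All 3 Ogt-KD libraries were above the controls, on 20 to 100 reads a library. Its log2 fold change was 1.46 (SE 0.28, unadjusted p = 0.00109 and adjusted p = 0.480 in edgeR). The adjusted p was 0.00728 in DESeq2, 0.510 in limma-voom and 0.0568 in edgeR with the replicate block, so the call rests on the tool. Slc3a1 (-0.93, SE 0.33), the cystine carrier chain Slc7a11 (1.37, SE 0.63) and Slc38a9 (0.29, SE 0.14), a lysosomal arginine sensor, followed, at adjusted p values in edgeR from 0.609 to 0.696. Of the 20 tested, 2 were higher without overlap, Slc7a10 and Slc38a9, and 1 was lower, Slc3a1. Over all tested genes these shares were 7.43% and 5.88%.

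Genes that place carriers in the membrane or act on what they bring in were also listed. Of the 8 partner and trafficking genes 7 lay below 0, with a median log2 fold change of -0.20, and 0 were called in edgeR or DESeq2. Sgk1, a kinase that raises the surface level of several carriers, had the smallest p, at 72.7, 65.4 and 83.6 CPM in control and 52.3, 49.7 and 57.8 CPM in Ogt-KD libraries. All 3 Ogt-KD libraries were below the controls (log2 fold change -0.47, SE 0.12, edgeR unadjusted p = 0.00460, adjusted p = 0.517). Sgk1 was the 1 gene of these 8 that was lower without overlap, where 5.88% of all tested genes were. Itm2b (-0.20) and Nedd4l (-0.21), a ubiquitin ligase for membrane carriers, had larger errors of 0.18 each. Of 24 genes of amino acid sensing and mTORC1, 13 lay above 0 with a median of 0.005 and 0 called. The leucine sensor Sesn2 (0.39, SE 0.15) and the arginine sensor Castor1 (0.32, SE 0.12) were higher without overlap. That is 2 of 24, where 7.43% of all tested genes were higher without overlap. Nprl3 had 0.14 and Lamtor2 -0.12. Of 14 tested enzymes that use the carried substrates 9 lay above 0, with a median of 0.07 and 0 called. Hexokinase 2 (Hk2), which traps incoming glucose, had 0.57 (SE 0.29) and Bcat1, which starts leucine breakdown, had 0.54 (SE 0.32), and for both Ogt-KD replicate 3 lay within the control range. Psat1, of serine synthesis, had 0.19 (SE 0.12).

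Other marker lists were read beside these values. B cell markers lay above 0 in 5 of 5 (median 0.31) and neutrophil markers in 8 of 8 (0.37), with 0 called in edgeR or DESeq2. CD8 and NK markers lay above 0 in 3 of 5 tested (0.17), T cell markers in 3 of 5 (0.02), activation genes in 5 of 8 (0.16), and the 1 tested platelet gene stood at 0.10. The medians were 1.49 for erythroid, 1.10 for dendritic cell, 0.79 for cell cycle and -0.58 for macrophage lists, with 0 genes called in each by edgeR. DESeq2 called 1 of 10 erythroid, 3 of 15 cell cycle and 2 of 8 activation genes, and 0.638% of all tested genes. With the replicate block 2 of 10 erythroid, 4 of 10 dendritic cell and 1 of 8 activation genes were called, and 0 carriers. That fit called 0.292% of all tested genes.

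**Figure D5:**
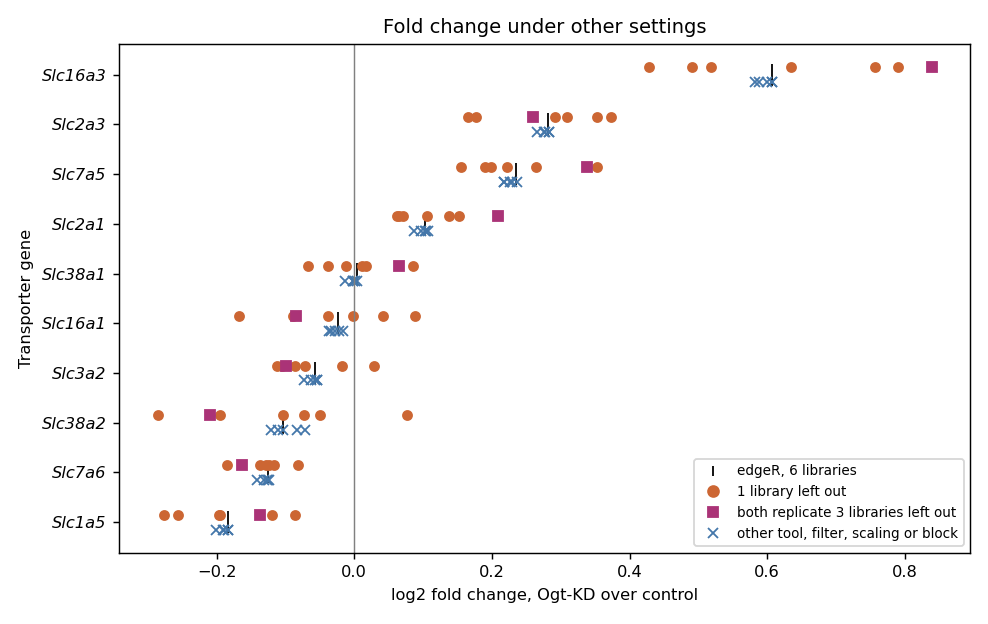
Log2 fold change, Ogt-KD relative to control (horizontal axis), of each carrier with all 6 libraries (black line), with 1 library left out (circles), with both replicate 3 libraries left out (squares) and with another tool, filter, scaling or block (crosses). Slc16a3 stays between 0.43 and 0.84, and the values of Slc38a1, Slc16a1, Slc3a2 and Slc38a2 fall on both sides of 0.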

How the data were processed

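RNA of 6 libraries was compared, 3 control and 3 Ogt-KD. Per the submitters' processing notes, Bowtie2 2.0.6, TopHat2 2.0.9 and build mm9 were used; the sources used here do not name the counting tool, its strand setting or the authors' test. The deposited file holds read counts per Ensembl gene. The authors' FPKM, in the same file, equal each count divided by gene length and by a constant of its library, as checked on the values. The authors' mean normalized signal per group, the authors' log2 fold change and the authors' p-value were read but not used for any result. The deposited gene length in bases, an other unit from the authors, entered the FPKM check. Through the authors' FPKM it also bears on the levels and ratios given in FPKM. Of 54532 identifiers 54409 matched GENCODE M21, 53499 with the same coordinates, so positions are on GRCm38. All 10 carriers had the same coordinates.

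Counts were tested with edgeR 4.0.16 (R 4.3.3; TMM, filterByExpr, robust quasi-likelihood fit, 16075 genes), with Benjamini-Hochberg adjustment over all tested genes at 0.05. DESeq2 1.42.0, limma-voom (limma 3.58.1), other scaling, no filter, leaving out libraries and a replicate block were alternatives; those of the FPKM ratios were chosen after seeing the data. The scripts were tested on simulated data. After group means were removed, same-numbered libraries correlated at 0.109, 0.346 and 0.523 across genes, all above 0.1. The numbers were therefore taken as pairs in the block and the pair counts, although the labels state no pairing. Control replicate 2 with Ogt-KD replicate 1 had 0.267, and control replicate 1 with Ogt-KD replicate 2 had 0.0736. Deviations from a group mean sum to 0, so these values depend on each other and cannot establish the pairing. Replicates are separate mice per the series' design. Intervals do not cover repeated reads, since no molecular identifiers were used.

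The carriers and lists were chosen with earlier results of these data known. The genes named were the 10 carriers, Ogt, up to 4 genes of each list with the smallest p, and the 3 genes most correlated with Slc2a1, Slc2a3, Slc7a5 and Slc38a2 among those with an average log2 CPM of at least 3; Bsg and Atf4 were named after their values were seen. Lists were other sugar and monocarboxylate carriers, other amino acid carriers, partners, factors, amino acid sensing, enzymes, and markers of cell types, cycle and activation. A gene of the enzyme list that the rule would name is not reported here.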

Additional observations from a re-analysis of the deposited data

How the results depend on the processing

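No carrier was called under any of the 12 alternatives, the replicate block included. The block changed no carrier's call and gave 2 of 10 carriers, Slc2a3 and Slc16a3, an unadjusted p under 0.05 in edgeR. With the block 13.2% of all tested genes had such a p, against 7.52% without it. The number of all genes called was 1 in edgeR with all libraries, 47 with the replicate block, 111 with DESeq2, 4 with no filter and 35 without both replicate 3 libraries, and it ran from 1 to 2 when 1 library was left out. The 2 calls arose on leaving out Ogt-KD replicate 2 or 3. The cause was not tested. The number of carriers above 0 ran from 4 to 7 and their median from -0.04 to 0.05 when 1 library was left out. Slc38a1 reversed with the replicate block (-0.00203), DESeq2 (-0.00220) and no filter (-0.0131), and ran from -0.0679 to 0.0854 when 1 library was left out. In the same way Slc16a1 ran from -0.168 to 0.0877, Slc3a2 from -0.112 to 0.0291 and Slc38a2 from -0.285 to 0.0773. Slc2a1, Slc2a3, Slc16a3, Slc7a5, Slc1a5 and Slc7a6 kept their direction under all 12 alternatives. The lowest adjusted p of any carrier was 0.130, for Slc7a5 in edgeR without Ogt-KD replicate 3. Counting error at the lowest count of each carrier (1.32% to 8.42%) was below its spread over the 6 libraries (6.05% to 31.4%). The SE of the log2 fold changes of the carriers ran from 0.08 to 0.25.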
